A study of Solanum tuberosum with 72 samples.

Results

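Cyclophilins are peptidyl-prolyl cis-trans isomerases, enzymes that help proteins fold by turning the bond before a proline, and they are the cellular target of the drug cyclosporin A. Plants carry a large family of them, with members in the cytosol, the nucleus, the chloroplast and the secretory pathway, and transcripts of several plant cyclophilins are known to respond to stress. The potato array held clones of 2 genes with the synonym Cyp, LOC102586427 and LOC102582822. All spots annotated to either gene were taken, which gave 20 of the 32448 spots. They are 10 complementary DNA clones printed at 2 spots each, 6 of LOC102586427 (a to f) and 4 of LOC102582822 (a to d), lettered by their first spot on the array. The cell compartment of neither protein is given in the sources used here.

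The plants were potato seedlings of the variety Gilroy, raised from true seed for 5 weeks on floating rafts in hydroponic medium at 25 °C, with 16 h of light and 8 h of dark. They met cold of 4 °C, heat of 35 °C, NaCl or no stress for 3, 9 or 27 h, and the medium was changed in the no-stress boxes as well. Leaf, which stands for aerial tissue, and root were sampled, so the 72 arrays fall into 24 groups of 3, 1 for each tissue, treatment and time. A sample pooled 6 plants from 2 boxes, and the experiment was done independently 3 times. The NaCl dose is given as 150 mM in one label and as 100 mM in another, and was not settled.

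Each array compared a query RNA in Cy3 with a reference RNA in Cy5, pooled from 6 control boxes matched for tissue and time. On the no-stress arrays the query was a further control sample. The values are log2 ratios of query over reference, and the stress effect is the mean ratio on stress arrays minus that on the no-stress arrays matched for tissue and time. That direction is likely but not settled, since it is not written in the table, the sample titles name the control first and no dye was swapped. With the ratio the other way round, each ratio and each stress effect below would change its sign. Among arrays the lowest correlation was -0.365, which joined replicate 3 of leaf cold at 27 h with replicate 2 of leaf heat at 9 h, and 2 of 2556 pairs lay under -0.3. Arrays had a value at 48.02% to 63.32% of spots, and the correlation between replicates of a group was from 0.10 in leaf heat to 0.91 in root cold. A ratio gives no level of a transcript, and in whole leaves or roots fewer cells of a type and less RNA per cell cannot be told apart.

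The 2 spots of a clone gave nearly the same ratios, with a correlation over arrays of 0.96 to 0.99 for the 10 clones. In leaf 9 of the clones had a value on all 36 arrays, and LOC102582822-b on 35. In root 5 of the clones had all 36, LOC102586427-e had 32, LOC102586427-f 30, LOC102586427-d 28, LOC102582822-b 22 and LOC102582822-a 12. A stress effect was tested where both groups had a value on at least 2 of their 3 arrays. Of 180 combinations of clone, tissue, stress and time 166 could be tested, and 26 passed an adjusted p of 0.05 in limma, 16 higher and 10 lower under stress. LOC102586427 gave 10 higher and 6 lower of 106, and LOC102582822 gave 6 higher and 4 lower of 60. Among all clones tested, the share that passed ran from 0.18% in leaf heat at 9 h to 39% in root cold at 27 h. These totals are therefore no sign that cyclophilins responded more often than other clones, and the background of each comparison is given below. The 3 stresses of a tissue and time share their no-stress arrays. No call changed direction in an alternative, and 8 of the 26 passed in every alternative run. Without each of their 6 arrays in turn 10 calls passed, and 1 more passed in the 4 such fits that could be made for it. Scaling the arrays to one spread ended 10 calls, fitting only the compared groups 11, and using the first spot alone 8.

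In cold roots the clones annotated to LOC102586427 went opposite ways. Their assignment rests on the annotation alone, and whether clone c matches the transcript of that gene was not checked, since no sequences were used. Clone c rose to 2.68-fold at 9 h and to 5.66-fold at 27 h, while clones a, b and f fell to between 0.599-fold and 0.677-fold at 27 h, and clones d and e passed at no time tested. At 27 h clone c had log2 ratios of 2.72, 2.54 and 2.01 on the cold arrays, against -0.46, 0.21 and 0.04 on the no-stress arrays. All 3 cold arrays lay far above all 3 no-stress arrays. The difference was 2.50 ± 0.20 (limma standard error, adjusted p = 1.5e-10), which ranked 68 among the higher values of 8938 clones tested. At 9 h clone c had 1.71, 1.74 and 1.21 in cold roots, against 0.04, 0.16 and 0.18 without stress. The groups were again apart, with a difference of 1.42 ± 0.20 (adjusted p = 2.5e-06) or 2.68-fold. At 3 h it had 0.60, 0.50 and 0.66 in the cold, against -0.13, -0.05 and 0.48, a difference of 0.48 ± 0.20 that did not pass (adjusted p = 0.108) although the groups did not overlap.

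Clones a and b of LOC102586427 fell in the cold at 9 and 27 h, and clone f at 27 h. At 9 h clone a had -1.07, -0.86 and -0.94 in cold roots, against 0.04, 0.01 and -0.08 without stress. Clone b had -0.90, -0.76 and -1.0 in the cold, against -0.14, -0.09 and -0.18. Both sets of cold arrays lay wholly below their no-stress arrays, by 0.95 ± 0.20 for clone a (0.519-fold, adjusted p = 0.000733) and by 0.75 ± 0.16 for clone b (0.594-fold, adjusted p = 0.000697). At 27 h clone b had -1.07, -0.61 and -0.54 in cold roots, against 0.09, -0.23 and 0.12, and clone f had -1.03, -0.62 and -0.45, against 0.03, -0.32 and 0.21. Neither overlapped its no-stress arrays, and both fell, clone b by 0.74 ± 0.16 (adjusted p = 0.000536) and clone f by 0.67 ± 0.18 (adjusted p = 0.00495). Clone a, with -0.93, -0.40 and -0.16 in the cold against 0.14, -0.13 and 0.19, fell by 0.56 (adjusted p = 0.0286). Its call at 27 h was lost without cold replicate 1 (-0.35), without no-stress replicate 1 (-0.52) and without no-stress replicate 3 (-0.50), while the values of clone c, the 9 h values of clones a and b, and the 27 h values of clones b and f passed without each of the 6 arrays. The 27 h call of clone f was lost with the first spot alone (-0.52) and with scaled arrays (-0.37).

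Clone d had -0.97, -0.42 and -0.17 at 27 h in cold roots, against -0.24 and 0.02 on the 2 no-stress arrays with a value. The groups overlapped and the difference of -0.41 did not pass (adjusted p = 0.132). At 9 h clone d had no value on the cold arrays and clone f had 1, so neither was tested. Clone e gave 0.06, -0.38 and 0.18 at 3, 9 and 27 h, none of which passed. At 3 h no clone of LOC102586427 passed in cold roots, where 13.2% of all clones tested did and 1 of these 6 had an unadjusted p under 0.05. At 9 h 3 of the 4 tested passed against a background of 26.3%, and at 27 h 4 of 6 against 39%.

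**Figure D1:**
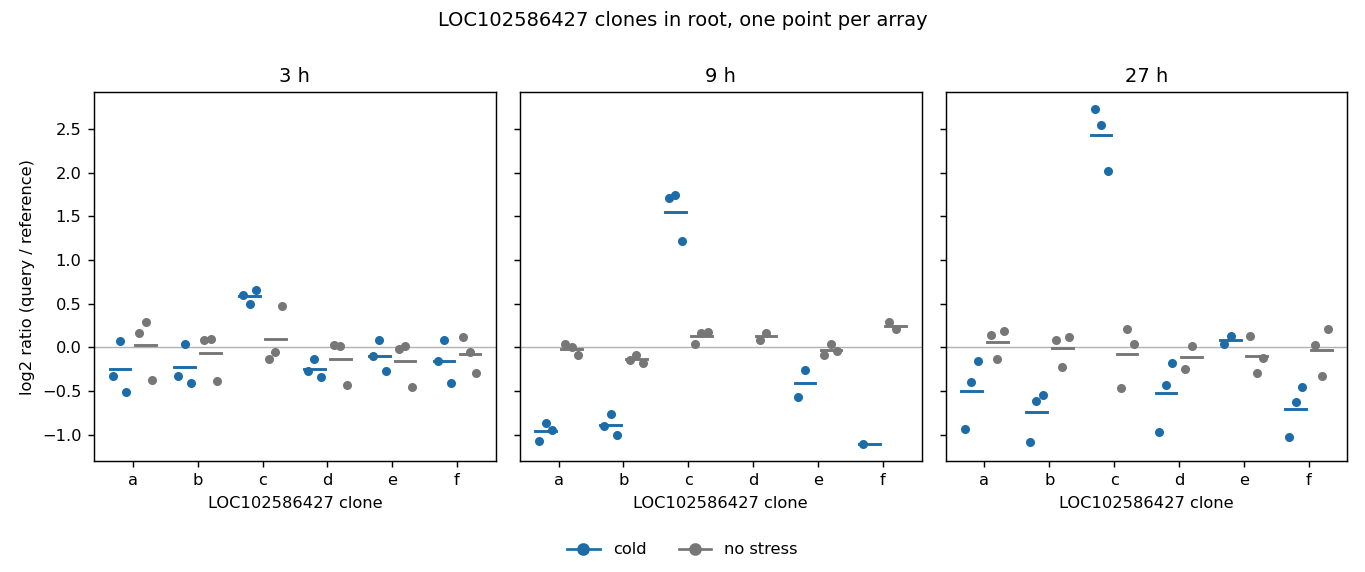
Log2 ratio (query over reference) of the 6 LOC102586427 clones on single root arrays, cold left of no stress, in a panel for each of 3, 9 and 27 h; points are arrays and short lines group means. Clone c lies above 2 on all 3 cold arrays at 27 h, where the cold arrays of clones a, b and f lie below 0.

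Whether clones of LOC102586427 differed from each other was tested for each of the 15 pairs and each stress. That these clones disagree was known from these data beforehand, so the test is not independent evidence of it. The test took the difference between both clones on each array, averaged its stress effect over the 3 times, and permuted arrays within each time. It is exact and two-sided, with 8000 arrangements and a smallest possible p of 0.00025 for 9 arrays against 9, and p-values were adjusted over the pairs and stresses of a tissue. In cold roots 5 of the 6 pairs that could be tested passed. Clone c lay above clone a by 2.07 and above clone b by 2.02 (exact permutation test, adjusted p = 0.00425 for each), and above clone e by 1.44 (adjusted p = 0.0136). Clone e lay above clone a by 0.49 and above clone b by 0.47 (adjusted p = 0.00425 for each by the exact test). Clones a and b differed by 0.05 and did not pass.

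The pairs of clone c with a and b passed in all 16 alternatives run, between 1.30 and 2.21, the lowest with arrays scaled to one spread. The pair with clone e passed in 9 of the 11 alternatives that could test it, and was lost without no-stress replicate 1 or 2 (1.27 and 1.46, adjusted p = 0.07 for each by the exact test). In the pair tests a replicate was left out at all 3 times. Both counts include the alternatives without a heat or salt replicate, which use the same cold and no-stress arrays. There the differences stayed at 2.07, 2.02 and 1.44, and only the adjustment of p could change. In root salt 5 of 15 pairs passed. Clone f lay below clones a, b, d and e by 0.28 to 0.42 (adjusted p from 0.0157 to 0.0189 by the exact test), and clone e above clone b by 0.18 (adjusted p = 0.0476). None of these 5 involved clone c, and none passed without no-stress replicate 1, 2 or 3, or without salt replicate 1 or 3, in settings where only 1 to 6 of the pairs without clone c could be tested. In root heat none of 13 pairs passed by the exact test, and none had an unadjusted p under 0.05. In leaf none of 45 passed (lowest adjusted p = 0.0675 by the exact test), with 6 in cold, 0 in heat and 2 in salt at an unadjusted p under 0.05, and none passed by limma on the same differences.

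The clones also followed each other unequally from array to array. In leaf the 5 other LOC102586427 clones correlated with each other at 0.62 to 0.97 over 36 arrays, and in root at 0.47 to 0.96 over 26 to 36 arrays. Clone c correlated with them at -0.03 to 0.03 in leaf and at -0.71 to -0.21 in root. The 4 LOC102582822 clones correlated at 0.89 to 0.96 in leaf and at 0.74 to 0.93 in root, over as few as 12 root arrays. These values are given as a description, since clones share the arrays, the dyes and the reference. They run over all treatments of a tissue, so in root the cold differences above enter them, and they are not separate evidence. As a measure over the array, 159 clones belonged to the 33 genes with 4 or more clones on enough root arrays, and the median correlation of a clone with the others of its gene had a median of 0.81. Clone c, at -0.63, had the lowest of the 159, and 15 of them lay below 0. In leaf 16 of 188 such clones, from 11 genes, were at or below its 0.02.

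**Figure D2:**
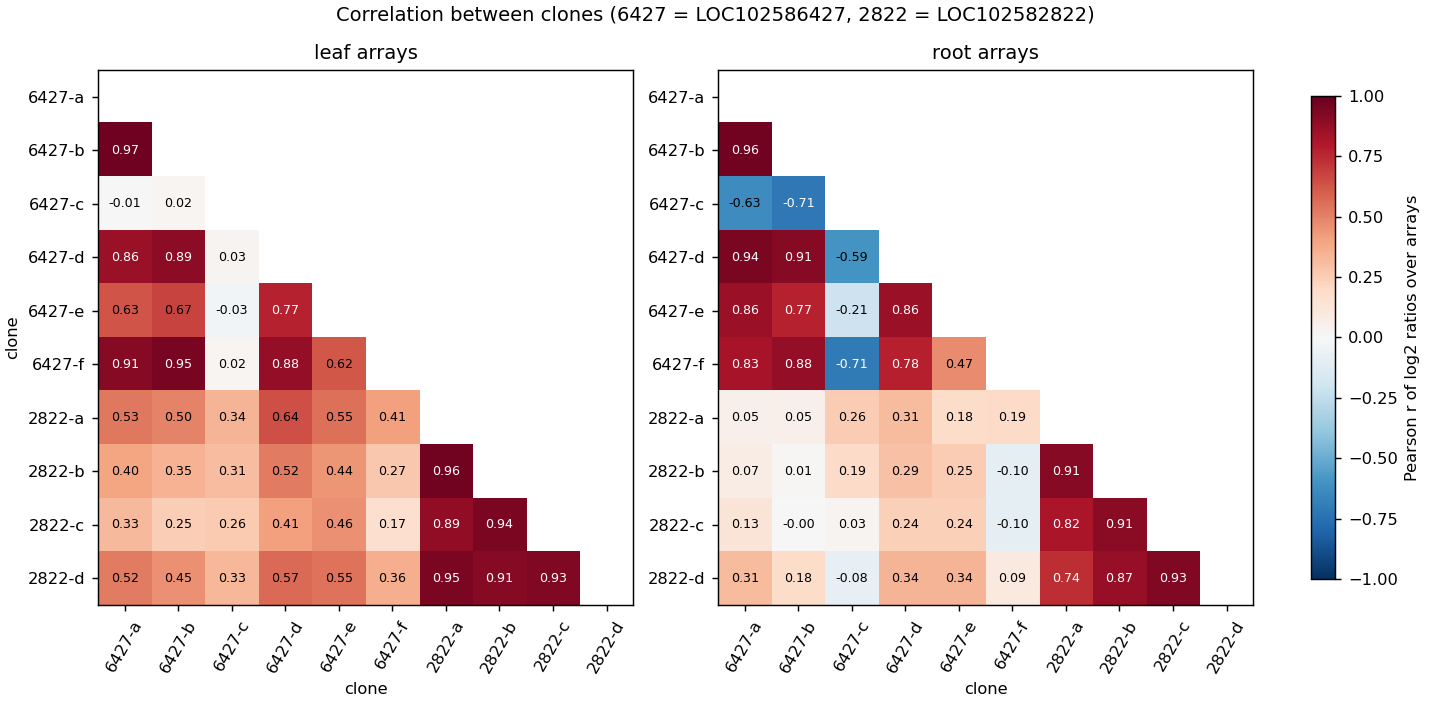
Pearson correlation of log2 ratios over arrays between the 10 cyclophilin clones, in leaf and in root, with colour for the coefficient. Clone c of LOC102586427 is near 0 with the others of its gene in leaf and between -0.71 and -0.21 in root, while the LOC102582822 clones correlate at 0.74 or more.

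In heated and salted roots 3 clones of LOC102586427 passed, b and f in heat and e in salt. Clone c did not pass, at 0.10, -0.20 and 0.06 in heat and 0.42, 0.25 and 0.27 in salt for 3, 9 and 27 h, and no pair with clone c passed under either stress in the tests above. In heat at 3 h clone f had 0.49, 0.83 and 0.42, against 0.12, -0.05 and -0.29 without stress, and clone b had 0.33, 0.67 and 0.41, against 0.08, 0.10 and -0.39. The groups were apart for both, clone f rose by 0.66 (adjusted p = 0.0297) and clone b by 0.54 (adjusted p = 0.0387). These were 2 of 6 clones tested, against a background of 7.25%, and clones a, d and e gave 0.48, 0.39 and 0.42 without passing. The call of clone b was lost without heat replicate 1, 2 or 3 (0.61, 0.43 and 0.57) or no-stress replicate 3 (0.38). That of clone f was lost without heat replicate 1 or 2 (0.70 and 0.53) or no-stress replicate 2 or 3 (0.67 and 0.55). At 9 and 27 h none of the 6 passed in heat by limma and none had an unadjusted p under 0.05, against backgrounds of 5.82% and 20%.

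In salt clone e had 0.67, 0.37 and 0.46 at 3 h in root, against -0.02, 0.02 and -0.45. The salt arrays lay above the no-stress arrays, and clone e rose by 0.65 ± 0.17 (adjusted p = 0.00753), a call lost without no-stress replicate 3 (0.50, adjusted p = 0.0523). At 27 h it had 0.42, 0.38 and 0.82 in salt, against 0.13, -0.29 and -0.12, again apart, and rose by 0.64 (adjusted p = 0.042). That call was lost without salt replicate 1 or 3 (0.70 and 0.50) or no-stress replicate 2 or 3 (0.54 and 0.63). Clone e was the 1 of 6 clones that passed at each of these times, against backgrounds of 21.5% at 3 h and 2.4% at 27 h. Of the 6 clones at 3 h, 5 had an unadjusted p under 0.05, clone c among them, and all 6 values lay above 0 at both times. At 9 h none of the 6 passed by limma and none had an unadjusted p under 0.05, against 4.37%.

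In cold roots the clones of LOC102582822 fell at 3 h and passed at no later time. At 3 h clone c of this gene had -0.86, -1.33 and -1.58 in cold roots, against 0.03, 0.16 and 0.16 without stress. Clone d had -0.72, -0.89 and -1.49 in the cold, against 0.14, 0.09 and 0.31. Every cold array of both clones lay below every no-stress array. Clone c fell by 1.37 ± 0.24 (0.387-fold, adjusted p = 0.00024) and clone d by 1.22 ± 0.29 (0.430-fold, adjusted p = 0.00455). Both passed without each of the 6 arrays, and they were the 2 clones of this gene that could be tested at 3 h, where the background was 13.2%. At 9 h the 4 clones gave -0.53 to -0.15, and at 27 h the 2 tested gave 0.00 and -0.23. None of these passed by limma or had an unadjusted p under 0.05, against backgrounds of 26.3% and 39%.

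In heated roots clone c of LOC102582822 had -0.68, -0.60 and -1.06 at 3 h, against the same 0.03, 0.16 and 0.16. It lay apart from the no-stress arrays and fell by 0.89 (adjusted p = 0.0242), a call lost without heat replicate 1 or 3 (-0.94 and -0.75) or no-stress replicate 2 or 3 (-0.87 for each). Clone d gave -0.78 at 3 h and did not pass (adjusted p = 0.0961), so that 1 of 2 passed against a background of 7.25%. At 9 h clones a to d gave -0.66, -0.72, -0.41 and -0.61, and at 27 h clones c and d gave -0.47 and -0.60. None of these 6 passed by limma, with 3 at 9 h and 1 at 27 h at an unadjusted p under 0.05, and all lay below 0. The backgrounds were 5.82% at 9 h and 20% at 27 h. In salt none passed in root by limma and none had an unadjusted p under 0.05, with values from -0.20 to 0.30. The backgrounds in root salt were 21.5%, 4.37% and 2.4% at 3, 9 and 27 h.

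**Figure D3:**
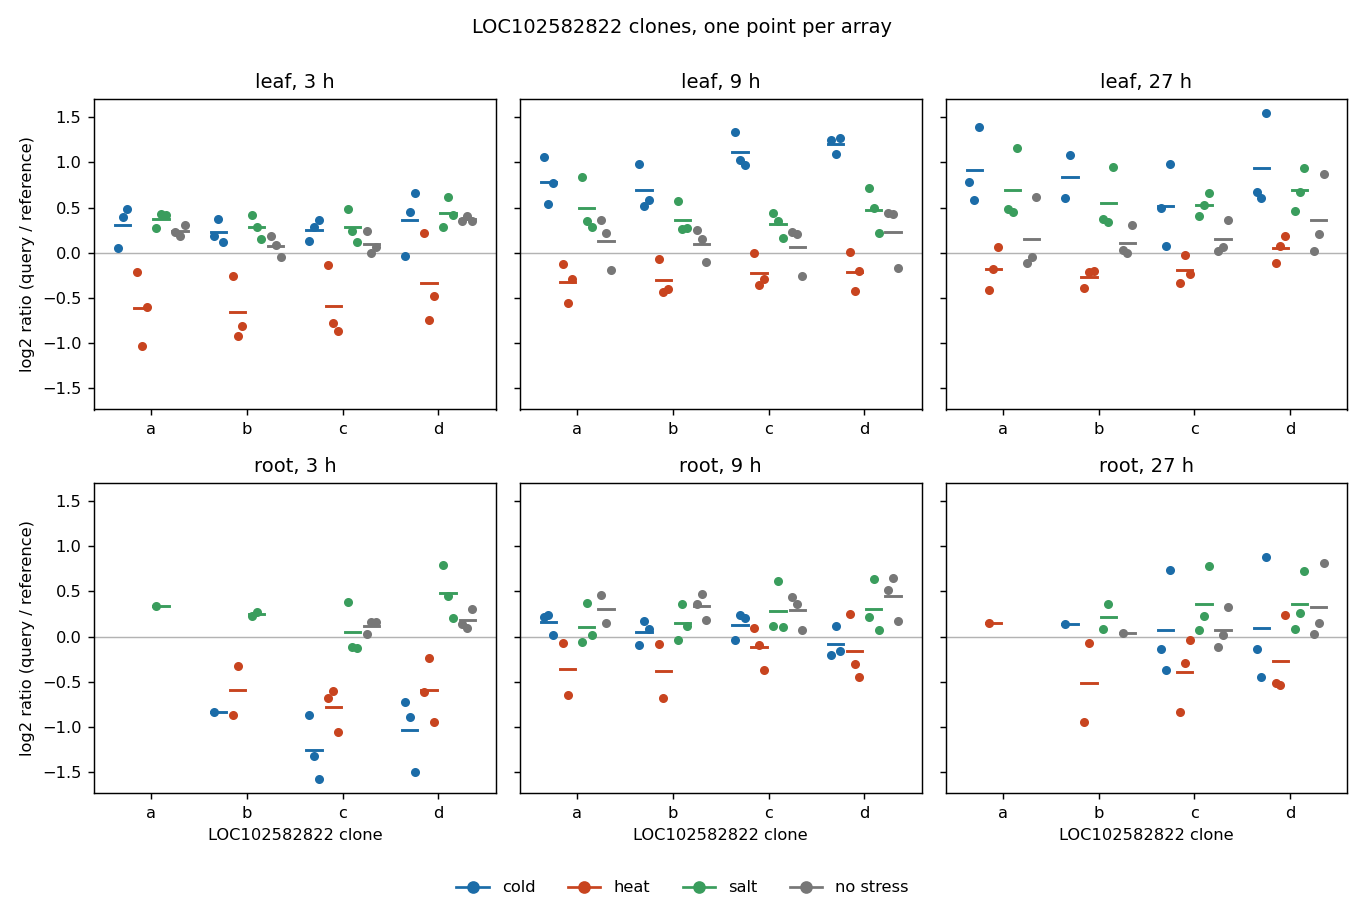
Log2 ratio of the 4 LOC102582822 clones on single arrays in leaf and root at 3, 9 and 27 h, for cold, heat, salt and no stress from left to right; points are arrays and short lines group means. The highest cold arrays are in leaf at 9 and 27 h, and the lowest are in root at 3 h, where clones c and d lie between -1.58 and -0.72.

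In leaf the same gene was higher in the cold. At 9 h all 4 clones of LOC102582822 passed, against a background of 22.6%. Clone c had 1.34, 1.02 and 0.98 in cold leaves, against 0.23, 0.21 and -0.26 without stress, and clone d had 1.25, 1.10 and 1.27, against 0.44, 0.43 and -0.17. All cold arrays of both clones lay above all no-stress arrays. Clone c rose by 1.05 ± 0.19 (2.07-fold, adjusted p = 0.000171) and clone d by 0.97 ± 0.25 (adjusted p = 0.00458), and both passed without each of the 6 arrays. Clone a, with 1.06, 0.54 and 0.77 in the cold against 0.37, 0.22 and -0.18, rose by 0.66 (adjusted p = 0.0437), and clone b rose by 0.60 (adjusted p = 0.0156). The groups of both were apart. The call of clone a was lost without cold replicate 1 or 3 (0.52 and 0.67) and without either no-stress replicate 2 or 3 (0.70 and 0.50), and that of clone b without cold replicate 1 (0.45) or no-stress replicate 3 (0.50). Clone c alone of the 4 still passed with arrays scaled to one spread.

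At 27 h in cold leaves clone b of LOC102582822 had 0.60 and 1.08 on the 2 cold arrays with a value, against 0.03, 0.00 and 0.30 without stress. These did not overlap, and clone b rose by 0.73 (adjusted p = 0.00881). Clone a had 0.79, 0.58 and 1.40 in the cold, against -0.11, -0.05 and 0.62, which overlapped, and rose by 0.77 (adjusted p = 0.0188). Its call was lost without cold replicate 3 (0.53) or no-stress replicate 1 or 2 (0.64 and 0.67). Clones c and d gave 0.37 and 0.57 and did not pass, so that 2 of 4 passed against a background of 21.6%. At 3 h the 4 values lay between -0.01 and 0.16, none passed by limma or had an unadjusted p under 0.05, and the background was 16.8%.

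In heated leaves all 12 values of LOC102582822 lay below 0 and 1 passed. At 3 h clone b had -0.25, -0.92 and -0.81, against 0.18, 0.08 and -0.04 without stress. The heat arrays lay below the no-stress arrays, and clone b fell by 0.73 (adjusted p = 0.0478) where 0.679% of all clones tested passed. That call was lost without heat replicate 2 or 3 (-0.61 and -0.66) and without no-stress replicate 1, 2 or 3 (-0.68, -0.73 and -0.79). Clones a, c and d gave -0.85, -0.69 and -0.70 at 3 h, with groups apart and an unadjusted p under 0.05, and did not pass (adjusted p = 0.0898, 0.0865 and 0.222). At 9 h the 4 clones gave -0.46 to -0.28 and at 27 h -0.38 to -0.32. None of these passed by limma, 1 at each time had an unadjusted p under 0.05, and the backgrounds were 0.18% and 0.644%. In salt the 12 leaf values lay between 0.07 and 0.55, and none passed by limma, with 0, 0 and 2 at an unadjusted p under 0.05 at 3, 9 and 27 h, against backgrounds of 0.808%, 7.48% and 11.9%.

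LOC102586427 gave single calls in leaf, with 1 of its 6 clones passing at each of 3, 9 and 27 h in the cold, against backgrounds of 16.8%, 22.6% and 21.6%. In cold leaves at 3 h clone a had -0.79, 0.14 and 0.03, against 0.28, 0.63 and 0.33. The groups were apart and clone a fell by 0.62 (adjusted p = 0.0404), a call lost without cold replicate 1 (-0.32) or no-stress replicate 1, 2 or 3 (-0.68, -0.51 and -0.66). At 9 h clone e had 1.06, 0.08 and 0.49, against -0.01, -0.13 and -0.21, and rose by 0.66 (adjusted p = 0.0138), a call lost without cold replicate 1 (0.40) or no-stress replicate 3 (0.61). At 27 h clone d had 0.76, 0.74 and 0.59, against -0.16, -0.07 and 0.38, and rose by 0.65 (adjusted p = 0.0437). That call was lost without any of the 3 cold arrays (0.62, 0.62 and 0.70) or no-stress replicate 1 or 2 (0.54 and 0.59). Clone c, which rose in cold roots, gave 0.30, 0.01 and 0.26 at 3, 9 and 27 h in cold leaves and passed at none.

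In salted leaves 1 of 6 clones of LOC102586427 passed at 9 h and 1 of 6 at 27 h, against backgrounds of 7.48% and 11.9%. With the replicate number as a block 6 values passed in place of 2, clone d joining at 9 h and clones a, b and f at 27 h; same-numbered arrays deviated together in leaf salt at all 3 times. Clone b had 0.51, 0.41 and 0.57 at 9 h, against 0.03, -0.04 and -0.28, and rose by 0.59 (adjusted p = 0.0469), with groups apart. Its call was lost without each of the 6 arrays in turn, with values from 0.50 to 0.65. Clone d had 0.60, 0.46 and 1.30 at 27 h, against -0.16, -0.07 and 0.38, and rose by 0.74 (adjusted p = 0.0332). That call was lost without salt replicate 3 (0.48) or no-stress replicate 1 or 2 (0.63 and 0.68). At 3 h in salt none of the 6 clones passed by limma, and 1 had an unadjusted p under 0.05, against a background of 0.808%. In heated leaves none of the 18 values passed by limma, and 0, 1 and 0 had an unadjusted p under 0.05 at 3, 9 and 27 h. The backgrounds there were 0.679%, 0.18% and 0.644%.

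**Figure D4:**
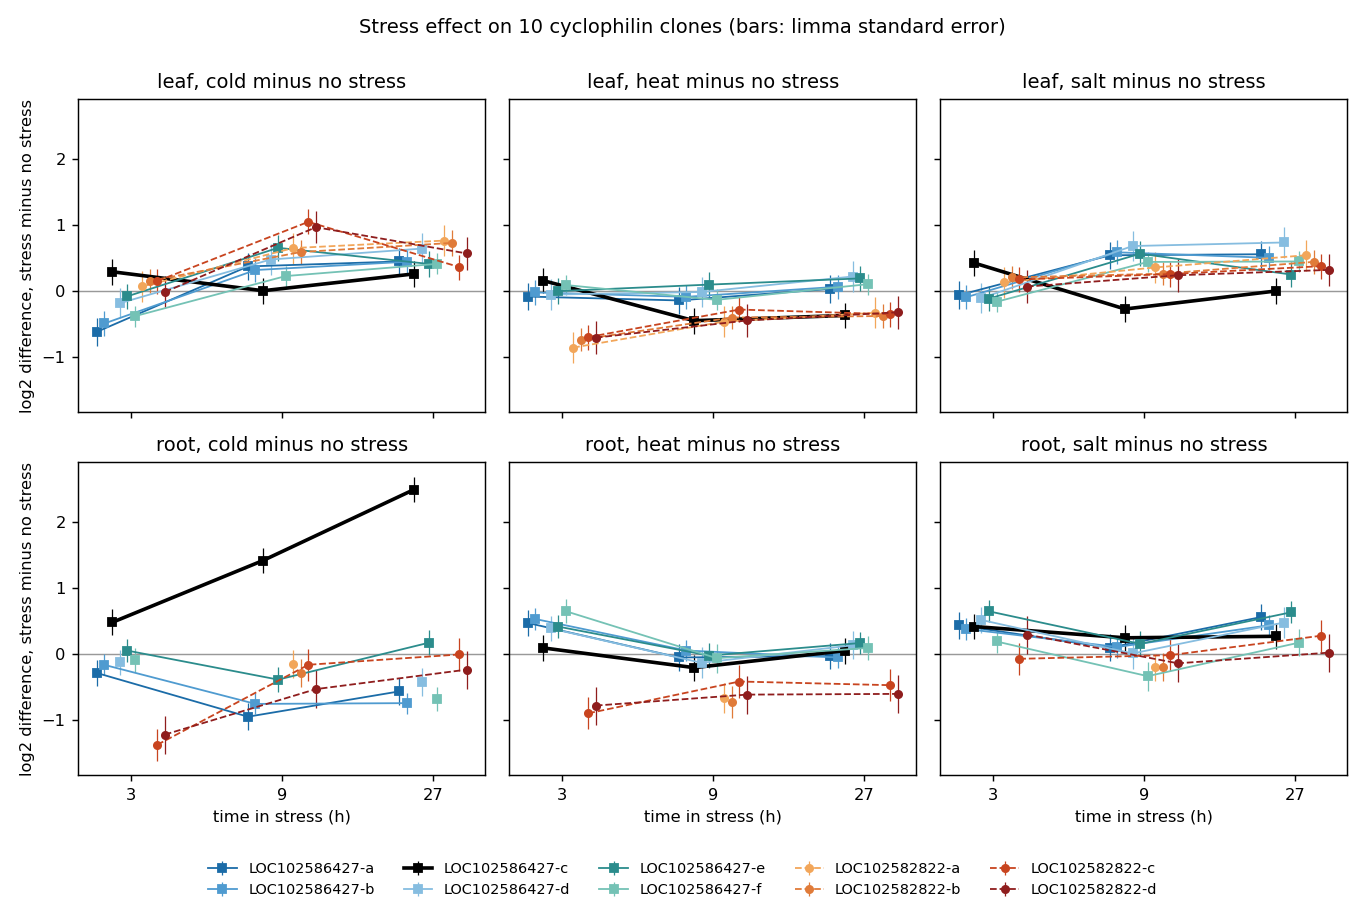
Log2 stress effect (stress minus no stress) of the 10 cyclophilin clones at 3, 9 and 27 h, in a panel for each tissue and stress, with limma standard errors as bars and LOC102586427-c in black. In root cold clone c reaches 2.50 at 27 h above all other clones, while LOC102582822-c and -d stand at -1.37 and -1.22 at 3 h.

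The change of the stress effect with time was tested as the effect at 27 h minus that at 3 h. In cold roots 2 of the 8 clones tested passed, against a background of 21.4%. LOC102586427-c was higher at 27 h than at 3 h by 2.02 ± 0.28 (adjusted p = 6.79e-06) and LOC102582822-c by 1.37 ± 0.35 (adjusted p = 0.00527). The second fell short of the threshold with cold replicate 3 left out at all 3 times (0.88, limma adjusted p = 0.0722). LOC102582822-d gave 0.99 and did not pass. In root heat and salt none passed by limma (backgrounds 0.172% and 2.89%), with 2 values in heat and 0 in salt at an unadjusted p under 0.05. In leaf none passed in cold, heat or salt (backgrounds 1.37%, 0% and 0.128%), where 6, 0 and 4 values had an unadjusted p under 0.05. With the replicate number as a block, LOC102586427-a, -b and -f were higher at 27 h than at 3 h in cold leaves, by 1.07, 0.94 and 0.79 (limma adjusted p = 0.0333, 0.0297 and 0.0472), and same-numbered cold and no-stress arrays deviated together there at both times, with correlations of 0.30 to 0.54.

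The difference between tissues was tested as the effect averaged over the 3 times in leaf minus that in root. In cold 5 of the 6 clones tested passed, against a background of 20%. LOC102586427-c lay lower in leaf than in root by 1.28 ± 0.16 on the log2 scale, a value of -1.28 (adjusted p = 2.48e-08). LOC102586427-a and -b lay higher in leaf by 0.67 (adjusted p = 0.00301) and 0.64 (adjusted p = 0.000622), and LOC102582822-c and -d by 1.03 (adjusted p = 2.19e-05) and 1.17 (adjusted p = 9.58e-05). With arrays scaled to one spread, LOC102586427-a and -b no longer passed (0.37 and 0.36). LOC102586427-e gave 0.38 and did not pass (adjusted p = 0.0785). In heat and in salt none of 8 clones passed by limma and none had an unadjusted p under 0.05, against backgrounds of 1.63% and 4.13%.

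Both genes were set against each other in a test added after their values had been seen. It was the exact permutation test used above, on the difference between 1 clone of LOC102582822 and 1 of LOC102586427 on each array, for all 24 pairs and each stress, adjusted over the tissue. The pairs share clones and arrays and are not independent. In root only clones c and d of LOC102582822 could be tested, and no pair with its clones a or b. In root heat all 12 pairs that could be tested passed. Clones c and d of LOC102582822 lay lower by 0.58 to 0.92 on the log2 scale, with values from -0.92 to -0.58 (lowest adjusted p = 0.002 by the exact test). Pairs with clone c of LOC102586427 were among them. Leaving out no-stress replicate 1 left 6 of 8 pairs.

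In leaf heat LOC102582822 lay lower in 19 of 24 pairs, and all 24 values were between -0.65 and -0.22. That count changed when a replicate number was left out at all 3 times, which leaves fewer arrangements for the test. The count was 0 of 24 without no-stress replicate 1, at values of -0.62 to -0.26, and 10 without heat replicate 3. It was 11 without no-stress replicate 2 and 7 without no-stress replicate 3. In leaf cold LOC102582822 lay higher in 11 of 24 pairs, at 0.15 to 0.45 over all pairs, but in 0 without no-stress replicate 1, 1 without no-stress replicate 2, 2 without cold replicate 3 and 2 with arrays scaled to one spread. In root cold 3 of 8 pairs passed. The pairs with clone c of LOC102586427 had values of -2.13 and -1.98 (adjusted p = 0.002 for each by the exact test), and LOC102582822-d against LOC102586427-e had -0.60 (adjusted p = 0.044). In root salt 5 of 12 passed, at -0.49 to -0.30, and 0 of 6 did without salt replicate 1. In leaf salt none of 24 passed by the exact test and none had an unadjusted p under 0.05.

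**Figure D5:**
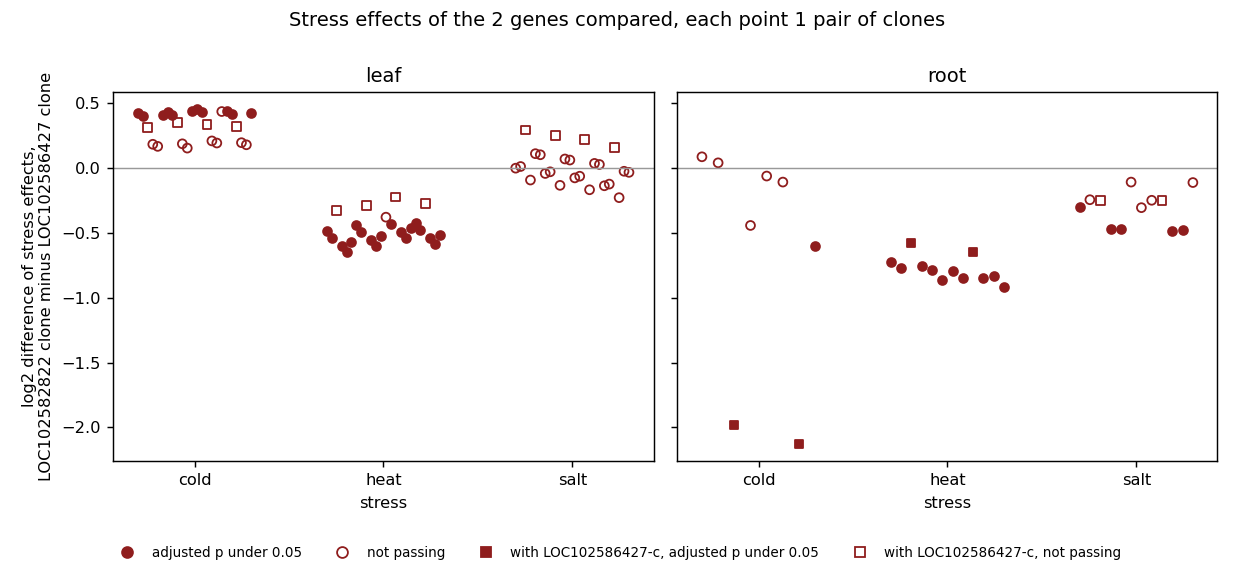
Difference between the log2 stress effects of a LOC102582822 clone and a LOC102586427 clone, averaged over 3, 9 and 27 h, for each pair of clones by tissue and stress; filled points pass an adjusted p of 0.05 and squares are pairs with LOC102586427-c. All 12 root heat pairs are filled and lie between -0.92 and -0.58, while the leaf salt pairs lie on both sides of 0. The root pairs hold only clones c and d of LOC102582822.

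Over all 24 groups the mean log2 ratio of LOC102586427-c was highest in root cold at 27 h (2.43 ± 0.37, SD, n = 3) and lowest in leaf heat at 27 h (-0.39 ± 0.16, SD, n = 3). In that order 21 of 23 neighbouring groups had overlapping arrays. Clones a and b were lowest in root cold at 9 h (-0.96 ± 0.11 and -0.89 ± 0.12, SD, n = 3 each) and highest in leaf salt at 27 h (0.70 ± 0.30 and 0.57 ± 0.19, SD, n = 3 each), with 23 and 22 of 23 neighbours overlapping. LOC102582822-c and -d were highest in leaf cold at 9 h (1.11 ± 0.20 and 1.21 ± 0.10, SD, n = 3 each) and lowest in root cold at 3 h (-1.25 ± 0.36 and -1.04 ± 0.41, SD, n = 3 each), with 22 and 23 of 23 neighbours overlapping.

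The named genes whose pattern over the 24 group means was most like each clone also differed, given here by Pearson's r as a description. For LOC102586427-c they were dof1, named for a family of DNA-binding transcription factors (0.83), AdoMetDC, S-adenosylmethionine decarboxylase of polyamine synthesis (0.83), and AOX, the alternative oxidase of mitochondria (0.79). AdoMetDC had 8 clones, and the least like of them had -0.40. For LOC102586427-a they were FeS1 (0.72), eIF-4D, a translation factor (0.72), and FIN1 (0.71). FIN1, PCAS-1 and eIF-4D were the 3 most like clones b and f, at 0.73 to 0.83. For clone e they were FeS1 (0.80), HPL (0.73) and GP-alpha-1 (0.70). LOC102582822-c was most like VPE2, named for the vacuolar processing enzymes (0.90), F3H, flavanone 3-hydroxylase (0.82), and PHA2, a proton pump ATPase of the plasma membrane (0.79). The other PHA2 clone had -0.37. Over single arrays the correlation with PHA2 was -0.36, and which PHA2 clone gave that value was not recorded. LOC102582822-d was most like VPE2 (0.94), gln (0.85) and GP-alpha-1 (0.78). LOC102586427-d and LOC102582822-a and -b lacked a value in some group and were not compared. Ranking over single arrays gave partly other genes. There 0 of the 3 genes named for LOC102582822-c and 1 of the 3 for each of LOC102586427-c, LOC102586427-e and LOC102582822-d stayed among the top 3. For LOC102586427-a, -b and -f 2 of 3 stayed. AOX, VPE2 and F3H had no correlation over single arrays and could not enter that ranking, so their absence from it does not come from the averaging.

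Of a list of other protein folding genes, chosen by annotation words such as chaperone, immunophilin and heat shock, the single named match was dnaJ, whose protein is a co-chaperone of Hsp70. Of its 8 clones 4 to 7 could be tested in each comparison of stress with no stress, and at most 1 passed. In leaf cold at 3 h 1 of 4 tested clones passed and rose by 0.43 (limma adjusted p = 0.0157), where 16.8% of all clones passed. The medians over clones lay between -0.24 and 0.38 in leaf and between -0.20 and 0.16 in root. In root a clone fell in cold at 27 h (-0.41), a different clone in heat at 9 h (-0.37) and 27 h (-0.53), and yet another in salt at 3 h (-0.48). Each was 1 of 4 tested, against 39%, 5.82%, 20% and 21.5% of all clones in these comparisons.

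The median stress effect over genes of green tissue was below 0 in all 9 root comparisons. The list held 15 clones of 4 genes, cab1, PSBR, OEE2 and MSP-II, which encode parts of the light-harvesting and oxygen-evolving complexes. In root cold 3 of 12, 6 of 13 and 11 of 14 tested clones fell at 3, 9 and 27 h, against 13.2%, 26.3% and 39% of all clones called in either direction, 2 rose at 27 h, and the medians were -0.67, -0.98 and -1.94. In root heat none fell at 3 or 9 h and 8 of 14 did at 27 h (median -1.47), against 7.25%, 5.82% and 20% of all clones. In root salt at 3 h, where LOC102586427-e rose, 2 of 13 green clones rose and none fell, against 21.5% of all clones called in either direction. There the median over clones was -0.47, and the list's array medians were -0.64 to -0.35 in salt, against -0.01 to 0.03 without stress. The median of the list on single root arrays at 27 h was -2.42 to -1.43 in cold and -3.01 to -0.67 in heat, against -0.29 to 0.30 without stress. At 3 h, where LOC102582822-c and -d fell in cold roots and the first of them in heated roots, it was -1.01 to -0.25 in cold and -1.12 to -0.01 in heat, against -0.01 to 0.03 without stress. LOC102586427-c passed in root cold at 9 and 27 h and gave 0.06 in root heat at 27 h, where the green list was also lower. The part of the green tissue genes in the root results was not tested, and ratios do not show whether any of these markers is at 0.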

How the data were processed

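Two-colour spotted complementary DNA arrays of potato leaf and root were analysed, 3 arrays in each of 24 groups. The authors deposited log2 ratios per spot, already processed; per the labels the query carried Cy3 and the reference Cy5. How background, normalization and empty spots were handled is not given in the sources used here, and array medians lay between 0 and 0.014. The array table holds no spot brightness or background, so the number of arrays sets the precision. A grid of 48 blocks of 26 by 26 spots was inferred, in which each clone has 2 spots (905 of 905 annotated pairs carried the same accessions). Both spots were averaged, giving 11037 clones with a value. Gene names came from the platform annotation and, for synonyms, a RefSeq gene table.

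Group means were fitted in limma 3.58.1 (R 4.3.3; lmFit, eBayes) over the 36 arrays of a tissue, or all 72 for leaf minus root, without a replicate block. Tests were two-sided with Benjamini-Hochberg adjustment over all clones of a comparison, called at an adjusted p of 0.05. A clone needed a value on 2 of 3 arrays of each group, and limma left empty arrays out. Clone pairs were compared with exact permutation tests (Python 3.11.15). The scripts were tested on simulated data.

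Every clone of both genes is named. Like genes are the 3 named genes of highest r, with 1 clone per gene, other clones of the same gene left out. The members and lists were chosen with earlier results of these data known. Alternatives covered single spots, a replicate block, centring, scaling of arrays, array weights, stricter coverage, fits to the compared groups alone, stress arrays against 0, and leaving out arrays. For the call of a single stress effect, each array was left out in turn. For counts, time and tissue differences and clone pairs, a replicate number of a treatment in a tissue was left out at all 3 times. No sequences were used.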

Additional observations from a re-analysis of the deposited data

Results flagged for a closer look

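A test of the difference itself set apart 5 clones whose cold effect was unlike in leaf and in root. The leaf minus root differences, averaged over the 3 times, were 0.668 for LOC102586427-a, 0.644 for LOC102586427-b, -1.28 for LOC102586427-c, 1.03 for LOC102582822-c and 1.17 for LOC102582822-d. In this comparison 4 clones of LOC102586427 and 2 of LOC102582822 were tested, and 20% of all clones tested passed. With arrays scaled to one spread, LOC102586427-a and -b no longer passed (limma adjusted p = 0.138 and 0.0775). The same kind of test set apart 2 clones whose cold effect in root changed between 3 h and 27 h, by 2.02 for LOC102586427-c and by 1.37 for LOC102582822-c. There 6 clones of LOC102586427 and 2 of LOC102582822 were tested, and 21.4% of all clones tested passed, so this count lies near the background.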

How the results depend on the processing

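None of the 26 passing stress effects changed direction in any alternative run, and 8 of them passed in all: LOC102582822-c in leaf cold at 9 h, LOC102582822-c and -d in root cold at 3 h, LOC102586427-a, -b and -c at 9 h and -b and -c at 27 h in root cold. Counts of passing cyclophilin values are given next for the main setting and for each alternative that moved them by over 1.5 times. The number of all clones passing moved with the settings too. Leaf cold had 9, against 4 with the first spot, 4 with arrays scaled to one spread, 4 with the compared groups alone and 16 with stress arrays set against 0. It had 4 to 12 with 1 replicate number left out at all 3 times, which is meant by arrays left out below. Leaf heat had 1, against 0 with the first spot, 0 with the second spot, 4 scaled, 3 with array weights, 0 with the compared groups alone and 4 against 0, and 0 to 2 with arrays left out. Leaf salt had 2, against 0 with the first spot, 1 with array medians subtracted, 1 scaled, 12 with array weights and 16 against 0, and 0 to 3 with arrays left out. Over all clones, 706 passed in leaf salt at 9 h in the main setting. With the first spot, array weights and stress arrays against 0 the counts were 563, 1966 and 2758. At 27 h these counts were 1175 in the main setting, then 951, 2368 and 2768. Root cold had 9, and 8 to 10 with arrays left out. Root heat had 3, against 7 scaled, 6 with array weights, 1 with the compared groups alone and 7 against 0, and 0 to 3 with arrays left out. Root salt had 2, against 4 scaled, 5 with array weights, 1 with the compared groups alone and 9 against 0, and 1 to 2 with arrays left out. Effects that differed between 27 h and 3 h numbered 0 in leaf, against 4 with array weights, and 0 with arrays left out; root had 2, and 2 to 3. Leaf minus root had 5, against 3 scaled, and 5 to 6 with arrays left out. Pairs of LOC102586427 clones numbered 0 in leaf, against 3 with the second spot and 5 scaled, and 0 to 3 with arrays left out. In root 10 pairs passed, against 5 with the first spot, 4 with the second and 2 with values on all 3 arrays, where fewer pairs could be tested, and 4 to 10 with arrays left out. Pairs across both genes numbered 30 in leaf, against 18 with the first spot and 0 to 32 with arrays left out, and 20 in root, against 12 with the second spot and 9 with values on all 3 arrays, and 12 to 19. Fewer arrays or pairs tested belong to the construction of the left-out and strict settings; the cause of the other shifts was not tested.

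With the replicate number as a replicate block, leaf salt had 6 passing values, the leaf effects that differed between 27 h and 3 h numbered 3, and leaf cold had 12, leaf heat 1, root cold 9, root heat 3, root salt 2, root 27 h against 3 h 2 and leaf minus root 5. The labels do not tie a number to a shared day or box, and the main fit did not pair the samples. Every same-numbered pair of deviations correlated over 0.1 in 10 of 18 comparisons, leaf cold at 3 and 27 h and all of leaf salt among them. Over all comparisons these correlations ran from -0.06 to 0.54. With 3 numbers to choose from, 45 of 54 stress arrays correlated best with their own number. This is a hint of pairing from the data and not from the design, and whether the samples are paired was not settled. Spot brightness was not analysed here, so limits from dim signal are unknown.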
